A study of Mus musculus with 17 samples.

Results

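Cells of repeated immunoglobulin pairs are described here beside cells of single pairs, all taken from GC B cells 48 h after anti-DEC-OVA treatment. A pair is the heavy-chain and the light-chain sequence of 1 cell, each read from framework 1 to framework 4. The pairs and their numbers were what the cells were chosen by: a repeated pair was seen in 3 or more cells of the same mouse and a single pair in 1. The founder pair, made of the most frequent heavy and the most frequent light chain of Day7 cells, was set aside. Of 3954 Day9DEC cells with both chains, 394 carried a repeated pair, 2326 a single pair, 232 a pair seen in 2 cells and 1002 the founder pair. The time course held 13618 cells with both chains in 39 mice, and the 6 pools of the series held 69340 cells in all.

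CD45.1/1 hosts were primed with OVA in alum and received B1-8hi B cells, which carry 1 knocked-in heavy-chain allele (Igh B1-8hi/+) that gives NP-specific receptors with λ1 light chains. By the study's methods, the tracked donors (CD45.2/2) also carried Col1a1 tetO-H2B-mCherry and a Vav-tTA transgene, whose promoter is active in blood cells at large, and other transferred B1-8hi cells lacked DEC-205 (Ly75-/-). The study describes the cells of this time course as DEC-205+, and the labels give the sort as live GC cells. Hosts were then immunized with NP-OVA in the footpad, so that all groups compared here shared these steps. Day9DEC mice (n = 9) were given anti-DEC-OVA on day 7 and taken on day 9, which is 48 h later, and Day9 mice (n = 6) were taken on day 9 without it. Mice came from 2 experiments, each 1 pool, with 6 Day9DEC and 4 Day9 mice in JP0063 and 3 Day9DEC and 2 Day9 mice in JP0071. GC B cells were sorted from lymph nodes, and the B1-8hi cells among them were kept by their contigs. All cells share the knocked-in heavy chain, which limits them as a model of other B cells. By the methods, adult mice of both sexes were used.

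In a GC, B cells move between a dark zone (DZ), where they divide and their immunoglobulin genes mutate, and a light zone (LZ), where they take up antigen and are selected by T follicular helper cells. Anti-DEC-OVA delivers OVA to B cells through DEC-205, a surface receptor encoded by *Ly75*, so that these B cells present it without the need to capture it through their own receptor. They then divide repeatedly in the DZ. Somatic hypermutation starts with deamination of cytosines, and the letters AGCT are a well-known preferred target. A cell lineage that divides without mutating leaves many cells of 1 sequence, whereas a lineage that mutates leaves many sequences of 1 cell each.

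The sequences show which pairs were repeated. They are printed 5′ to 3′ from the deposited contigs, with positions counted from 1 at the start of framework 1 and the founder base named before the base of the pair. The CDR3 stretch is in capitals in the first founder lines, and the changed bases are in capitals in the others, the last founder line included. The founder CDR3 to framework 4 stretches are given because the changes of the most frequent repeated pairs fall there.
founder heavy chain, bases 286 to 361: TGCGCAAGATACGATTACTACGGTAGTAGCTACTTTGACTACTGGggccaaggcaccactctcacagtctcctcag
founder light chain, bases 268 to 328: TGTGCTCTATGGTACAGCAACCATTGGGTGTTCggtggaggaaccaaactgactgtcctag
The light-chain CDR3 stretches of the 3 repeated pairs with an unchanged heavy chain that occurred in many mice follow, over bases 268 to 300.
T291C: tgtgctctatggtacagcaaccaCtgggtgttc
A290G T291C: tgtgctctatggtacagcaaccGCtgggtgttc
A290T: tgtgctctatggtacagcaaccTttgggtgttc
The 5 heavy-chain changes that were repeated in more than 1 treated mouse with the founder light chain are shown over CDR3 (bases 286 to 330) or, for C93G, over bases 83 to 103 around CDR1.
C315G: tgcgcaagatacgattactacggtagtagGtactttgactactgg
G314C: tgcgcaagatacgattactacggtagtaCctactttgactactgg
C315T: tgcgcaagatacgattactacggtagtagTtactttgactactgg
G314A: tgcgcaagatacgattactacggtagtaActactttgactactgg
C93G: ccttcaccagGtacttgatgc
The last stretch (heavy-chain bases 73 to 106) belongs to a pair found in 1 mouse alone, and the founder is printed under it.
C83T C84T C89T C90T C93T C96T: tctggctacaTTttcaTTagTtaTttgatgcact
founder, same bases: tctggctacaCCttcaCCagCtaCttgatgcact

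The V parts of these chains come from *Ighv1-72* on chromosome 12 (minus strand, 115721604 to 115721897 in GRCm39) and *Iglv1* on chromosome 16 (minus strand, 18903767 to 18904060), and the J parts from *Ighj2* (chromosome 12, 113393088 to 113393187) and *Iglj1* (chromosome 16, 18881975 to 18882012). The founder heavy chain differed from the *Ighv1-72* gene by G98T and T288C, here with the base of the genome first.

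The most frequent repeated pair was common to all mice. The T291C light chain with an unchanged heavy chain accounted for 229 of the 394 cells (58.1%). It was repeated in 9 of 9 Day9DEC mice, it was present in all 39 mice of the time course, 9 Day7 mice among them, and it numbered 561 cells in all. Per treated mouse it held between 9 and 40 cells, with a median of 26. In this light chain, *Iglv1* matched through base 290 and all 38 bases of *Iglj1* matched from the next base on, with 0 bases left over, so that T291C reads as a direct join of the germline genes. The founder light chain was another direct join, with *Iglv1* through base 292 and 37 of the 38 *Iglj1* bases from base 292. A different join and a mutation that gives the same letters cannot be told apart here. The A290G T291C and A290T light chains had 1 base and 2 bases in neither gene. With an unchanged heavy chain, they were repeated in 4 and 3 treated mice (32 and 17 cells) and present in 21 and 23 mice of the time course.

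A further group of repeated pairs carried 1 changed heavy-chain base with the founder light chain. There were 11 such pairs (58 cells), present in 2 to 30 mice each, and none of them was private to a mouse. In 6 of the 11, the change lay within an AGCT, whereas 20 of the 361 heavy-chain bases (5.54%) do. C315G, C315T, G314A and G314C all fell in the AGCT of CDR3 printed above, and C93G in the one of CDR1. G314A was found in 30 mice, C315T in 25, C93G and G314C in 19 each, and C315G in 18.

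The 48 repeated pairs counted mouse by mouse were thus 29 distinct pairs, of which 17 were found in 2 or more mice and 12 in 1 mouse of the time course. The 12 private pairs held 45 cells, 11.4% of all cells of repeated pairs. Private pairs were 4 in the mouse C1 (16 cells), 4 in C2 (17 cells), 3 in C3 (9 cells), all of JP0071, and 1 in M15 of JP0063 (3 cells). The other 5 Day9DEC mice had 0. The pair with 6 changes of C to T between bases 83 and 96 and the T291C light chain numbered 5 cells in C1, and a pair with an unchanged heavy chain and C26T C28T in the light chain numbered 7 cells in C2. By contrast, 83.1% of the cells of single pairs carried a pair that no other mouse had. Because most repeated pairs were shared between mice, an identical sequence does not by itself mark descent from 1 cell of a mouse, and whether the 394 cells are expanded clones was not tested. They are called cells of repeated pairs for that reason.

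**Figure D1:**
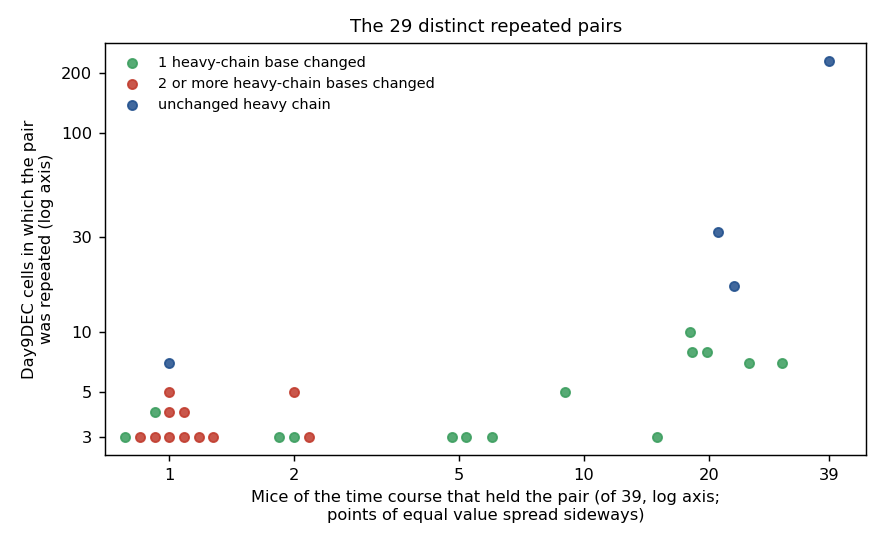
Each point is 1 of the 29 distinct repeated pairs, placed by the number of time-course mice that held it (horizontal, log axis) and by the number of Day9DEC cells in which it was repeated (vertical, log axis), with colour for heavy-chain changes. The pair at the upper right is T291C, with 229 cells and 39 mice, and the 12 pairs at the left were found in 1 mouse each.

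Cells of repeated pairs lay closer to the founder than cells of single pairs. The mean number of base differences over both chains (689 bases) was 1.33 ± 0.362 in repeated pairs, 2.07 ± 0.667 in pairs of 2 cells and 3.37 ± 0.244 in single pairs (SD, n = 9 mice; without 10 cells of single pairs whose chains differed in length from the founder's). An unchanged heavy chain was found in 285 of 394 cells (72.3%) and in 166 of 2326 cells (7.14%), respectively. In Day9 mice the means were 1.17 ± 0.333 in repeated and 3.89 ± 0.291 in single pairs (SD, n = 6). At the threshold, the 21 pairs of exactly 3 cells averaged 2 differences and 33.3% of them were private, and the 116 pairs of 2 cells averaged 2.06 differences and 41.4% were private. These values are given without a test, since the sequences chose the cells.

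Repeated pairs made up a larger share of the cells in treated mice. Among cells without the founder pair, the share in repeated pairs was 13.3% ± 5.68 in Day9DEC mice (SD, n = 9; lowest 5.88%, median 13.9%, highest 21.8%) and 5.58% ± 2.46 in Day9 mice (n = 6; 2.25%, 5.72% and 8.45%). It was 8.37% ± 2.60 in Day7 mice (SD, n = 9). The ranges of Day9DEC and Day9 mice overlapped, and the 3 treated mice of JP0071, at 17.3% to 21.8%, lay above the 6 of JP0063, at 5.88% to 14.2%. Part of the share was the T291C pair, which held 58.1% of the cells of repeated pairs in Day9DEC mice. Counted over all cells, those of the founder pair included, it accounted for 5.74% in Day9DEC and 3.72% in Day9 mice. With T291C cells also taken out of the total, repeated pairs held 6.11% ± 5.13 and 1.17% ± 1.44. The treated mice of JP0071 were then at 8.22% to 14.6% and those of JP0063 at 0.965% to 6.14%. Private pairs held 45 cells in 9 Day9DEC mice and 3 cells in 6 Day9 mice. In JP0063 these were 3 cells in the treated mouse M15 and 3 in the untreated mouse M08. A cut at 3 cells depends on the cells sampled, on average 439 per Day9DEC and 352 per Day9 mouse. The founder pair itself held 24.6% ± 8.26 of the cells in Day9DEC, 14.1% ± 5.64 in Day9 and 16.4% ± 5.81 in Day7 mice. The chance that 2 cells drawn from the cells of a mouse without the founder pair had the same sequences, which does not depend on the number of cells, was 0.722% in Day9DEC and 0.256% in Day9 mice, and 0.124% and 0.0212% without T291C. At 72 h the share in repeated pairs was 4.01% in Day10 (n = 8) and 3.22% in Day10DEC mice (n = 7).

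**Figure D2:**
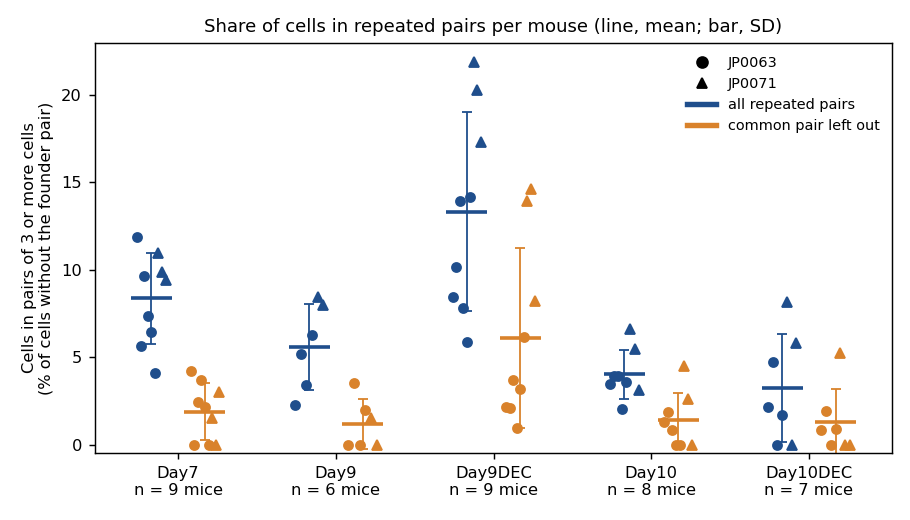
Percent of cells without the founder pair that belonged to repeated pairs, by mouse and group, for all repeated pairs and without the common T291C pair; lines are means and bars SD. Treated mice at 48 h averaged 13.3% and untreated mice 5.58%, with the JP0071 mice (triangles) the highest of the treated group.

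The next question was whether the classes differed in gene expression, which took no part in the choice of cells. UMI counts were summed per mouse and class, and the classes were compared within each mouse. After the filter on cells (at least 200 genes and under 10% mitochondrial UMIs), 391 cells of repeated pairs (19 to 70 per mouse) and 2324 of single pairs (193 to 301 per mouse) remained, and a sum held 354997 to 4661893 counts. Exact hashtag matches assigned 13976 of 16424 cells to mice in JP0063 and 13187 of 18233 in JP0071, and 94 cell barcodes occurred in both pools. T cell markers summed to 1.52 to 7.81 CPM in repeated and 1.68 to 3.49 CPM in single pairs. Myeloid markers summed to 0 to 7.61 and 0.502 to 3.71 CPM. In repeated pairs, whose sums held fewer counts, *Cd3e*, *Cd4*, *Cd8a*, *Lyz2*, *C1qa* and *C1qb* were at 0 in all 9 mice. *Thy1* of the T cell list was present in all 9, with a mean of 3.27 CPM against 1.69 CPM in single pairs. GC markers such as *Bcl6*, *Mef2b* and *Mybl1* were present in every mouse. The summed level of the 8 GC markers was 1730 to 2056 CPM (a gene's share of the library's counts, scaled by edgeR) in repeated and 2061 to 2493 CPM in single pairs. Of these 8, 0 were higher and 5 lower in repeated pairs, beside 6.16% of all genes higher and 6.53% lower.

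Among 8714 genes, 537 were higher (6.16%) and 569 lower (6.53%) in cells of repeated pairs than in cells of single pairs, 12.7% in both directions (edgeR quasi-likelihood test with the mouse as a block, adjusted p below 0.05). A sum over cells does not tell fewer cells that express a gene from less RNA of it per cell. Rises and falls here are in a gene's share of the counts. Cells of repeated pairs held more UMIs each (mean of the medians per mouse 19015 against 13673). A lower share therefore need not mean fewer molecules of a gene per cell. Of the 10 largest falls among well-expressed genes, *Cd83* and *Nfkbia* are in the LZ list, *Fcer2a* in that of naive and memory B cells and *Rgs13* in that of GC markers, and 5 of the 10 largest rises were no longer called without a small set of cells that held markers of plasma, naive or memory cells. Genes are named here from those with a mean log2 CPM above 4.

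*Apoe*, which encodes a lipid carrier, ranged from 51.3 to 145 CPM in repeated pairs (median 82.9) and from 124 to 353 CPM in single pairs (median 254). It was lower in repeated pairs in 9 of 9 mice, with a log2 change of −1.31 (standard error 0.0735, adjusted p = 4.56e-14 from edgeR). *Cd83*, an LZ surface marker, ranged from 42.6 to 109 CPM (median 80.7) and from 116 to 229 CPM (median 171), respectively. The groups did not overlap, and *Cd83* fell by 1.03 on the log2 scale (standard error 0.0825, adjusted p = 1.87e-10 from edgeR). *Rgs13*, a GC regulator of chemokine receptor signalling, ranged from 23.5 to 65.5 CPM in repeated and from 53.9 to 110 CPM in single pairs, and fell by 1.17 (standard error 0.0910, adjusted p = 1.13e-10 from edgeR). Its ranges overlapped between mice, while all 9 mice had the lower value in repeated pairs. *Fcer2a*, which encodes the low-affinity IgE receptor CD23, ranged from 18.5 to 129 CPM (median 45.6) and from 92.2 to 217 CPM (median 137), and fell by 1.32 (standard error 0.121, adjusted p = 3.72e-09 from edgeR).

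The 6 other genes with the largest falls were *Icosl*, the ligand of ICOS on T cells (log2 change −1.22), *Slfn2* (−1.20), the secreted amino acid oxidase gene *Il4i1* (−0.95), *Nfkbia*, an inhibitor and target of NF-κB (−0.92), *Klhl14* (−0.83) and *Hivep3* (−0.79). They were lower in 8 or 9 of the 9 mice each. *Slfn2* in the mouse C1 lay far below the others, at −2.79, and without C1 its change was −0.98.

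*Sub1*, which encodes a transcriptional coactivator, was at 16.4 to 201 CPM in repeated pairs (median 32.0) and at 11.2 to 32.8 CPM in single pairs (median 16.9), a log2 change of 1.68 (standard error 0.247, adjusted p = 1.84e-05 from edgeR). The mice M14 (201 CPM), C1 (113 CPM) and M15 (91.9 CPM) stood out, and the ranges of the classes overlapped. *Slpi*, a secreted protease inhibitor, ranged from 126 to 1887 CPM and from 84.5 to 619 CPM, respectively, and its log2 change was 1.14. *Slpi* was not called in DESeq2 (1.02), in JP0063 alone (1.03) or among cells with 1 or 2 differences from the founder (0.80), and leaving out 1 mouse moved it between 0.81 and 1.51. *Hsp90b1* (0.68) and *Klf2* (0.54) were not called in DESeq2 either, and *Klf2* was not called without M14 (0.61), M15 (0.62) or C3 (0.36). At least 1 UMI of a small set of marker genes of plasma cells (such as *Prdm1* and *Sdc1*) or of naive and memory B cells (such as *Ccr7*) was found in 26 of 391 cells of repeated pairs (6.65%), in 47 of 2324 of single pairs (2.02%) and in 81 of 996 of the founder pair (8.13%). Cells of repeated pairs were also deeper, at 19015 against 13673 UMIs per cell. *Slpi* is itself in the plasma cell list, and *Klf2* and *Fcer2a* in that of naive and memory cells. Over the plasma cell list, 3 of 4 tested genes were higher in repeated pairs and 0 lower, beside 6.16% of all genes higher and 6.53% lower. The summed level of the list was 1379 to 4736 CPM against 1254 to 2299 CPM. Most of it was *Jchain*, with means of 1774 and 1147 CPM, and *Sdc1* was at 0 in repeated pairs in 6 of 9 mice. Over the naive and memory list, 1 of 5 was higher and 2 were lower, beside the same shares. Its summed level was 47.0 to 196 CPM against 145 to 317 CPM.

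Without the cells that held such a UMI, a comparison chosen after seeing the data, 1087 genes passed (516 higher and 571 lower). The changes of *Sub1* (−0.10), *Slpi* (0.22), *Capg* (0.20, an actin-capping protein), the endoplasmic reticulum chaperone gene *Hsp90b1* (0.08) and *Klf2* (0.15, a transcription factor of resting B cells) were then no longer past the threshold. *Fabp5*, a fatty acid binding protein, kept its call at 0.74, as did *Gcsh* (0.70 against 0.65 with all cells, glycine cleavage in mitochondria), *Ide* (0.61 against 0.81, an insulin-degrading protease), *Rdx* (0.43 against 0.54, a linker of membrane and actin) and *Ly6a* (0.30 against 0.61). All 10 of the largest falls kept theirs. *Fabp5* ranged from 32.8 to 114 CPM in repeated pairs (median 90.5) and from 36.4 to 70.0 CPM in single pairs (median 49.7), was higher in 8 of 9 mice and had a log2 change of 0.81 (standard error 0.0908, adjusted p = 2.01e-07 from edgeR).

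**Figure D3:**
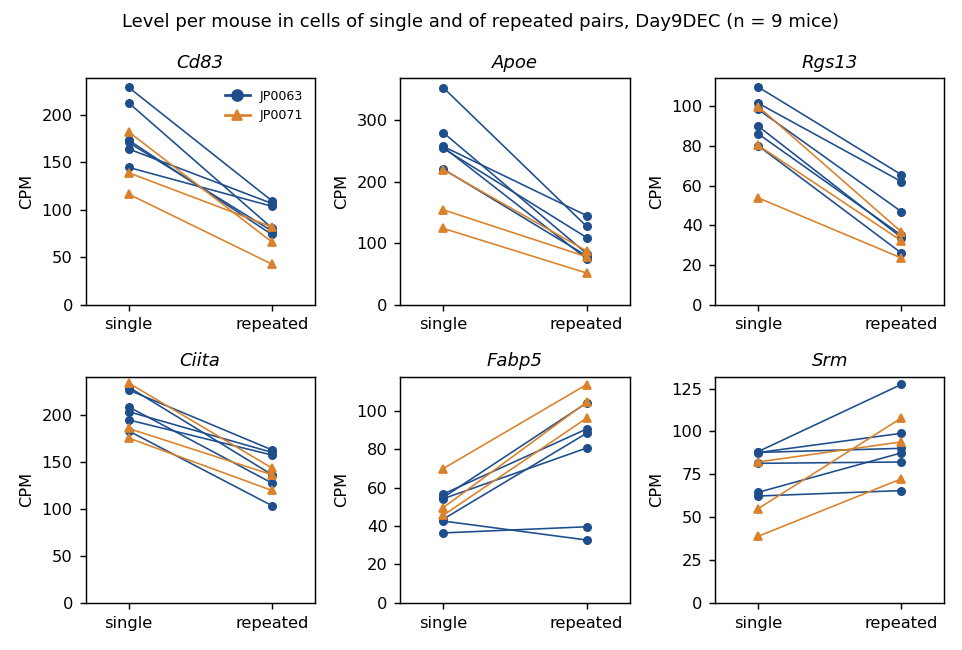
Level in CPM of 6 genes in cells of single and of repeated pairs, with 1 line per Day9DEC mouse (n = 9) and colour for the experiment. The lines of Cd83, Apoe, Rgs13 and Ciita all fall, that of Fabp5 rises in 8 of 9 mice, and Srm is higher in repeated pairs in all 9.

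Antigen presentation genes fell together as shares of the counts. All 10 genes of the MHC class II list (0 higher, 10 lower) were below the single-pair level in 9 of 9 mice each, with a median log2 change of −0.30 beside 0 over all genes tested. *H2-Oa*, a modulator of peptide loading, ranged from 41.2 to 95.9 CPM and from 72.5 to 151 CPM and had the largest fall of the list, −0.63 (standard error 0.0704, adjusted p = 1.91e-07 from edgeR). *Ciita*, the transcriptional activator of these genes, ranged from 104 to 163 CPM in repeated and from 176 to 234 CPM in single pairs with no overlap, and fell by 0.51 (standard error 0.0578, adjusted p = 2.04e-07 from edgeR). The others were the peptide-exchange genes *H2-DMa* (−0.42), *H2-DMb2* (−0.34) and *H2-DMb1* (−0.27), *H2-Ob* (−0.40), the chains *H2-Aa* (−0.27), *H2-Eb1* (−0.21) and *H2-Ab1* (−0.19), and the invariant chain *Cd74* (−0.24). In the B cell receptor signalling list, 8 of 10 genes fell and 0 rose (median −0.22). Of all genes tested, 6.53% were lower, which also stands beside the MHC class II count. Among the 8 were the kinase gene *Syk* (−0.38) and *Cd79b* (−0.32), which encodes a signalling chain of the receptor. *Lyn* (−0.30), *Cd79a* (−0.24), *Cd22* (−0.24), *Ptpn6* (−0.21) and *Blnk* (−0.18) were also lower, so that activating and inhibitory members both fell. *Btk* was at −0.06 (adjusted p = 0.552 from edgeR).

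Beside 6.53% of all genes lower and 6.16% higher, 10 of 17 tested genes of the LZ list fell and 0 rose (median −0.39). Besides *Cd83* and *Nfkbia*, these were *Relb* (−0.67) and *Batf* (−0.58), transcription factors of activation, the surface receptor genes *Slamf1* (−0.54), *Cd69* (−0.52), *Cd86* (−0.49), *Cd40* (−0.39) and *Il21r* (−0.27), and the adhesion gene *Icam1* (−0.36). *Egr1*, an early response gene, was at −0.73 without passing the threshold (adjusted p = 0.0717 from edgeR). In the DZ list of 10 genes, 5 rose and 2 fell (median 0.10), beside the same shares of all genes. The 5 that rose, *Cdc20* (0.36), *Plk1* (0.31), *Ccnb1* (0.31), *Aurka* (0.28) and *Hmgb2* (0.12), are mitotic or chromatin genes, and 3 of them are also in the G2M list. The 2 that fell, *Foxp1* (−0.57) and *Foxo1* (−0.26), encode forkhead transcription factors. *Cxcr4*, the chemokine receptor that holds cells in the DZ, was at −0.08 (adjusted p = 0.54 from edgeR) and members of the list moved in both directions.

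The cell-cycle lists moved little. In the G2M list, 12 of 54 genes rose and 0 fell (median 0.10), led by *Cdc20*, the tubulin gene *Tubb4b* (0.28), *Aurka* and *Anp32e* (0.28), with the other 8 (*Hmgb2*, *Birc5*, *Cks2*, *Ccnb2*, *Cdca3*, *Rangap1*, *Cdca8* and *Cenpa*) between 0.12 and 0.21. In the S-phase list, 3 of 43 rose (*Nasp*, *Tipin* and *Mrpl36*, at 0.24, 0.16 and 0.29) and 0 fell. That share is near the 6.16% of all genes that were higher, so that the count is no result about the list. The 12 of 54 G2M genes stand beside 6.16% of all genes, and the number moved with single mice. It was 4 without M17, 5 without C1, 7 without M13 and 16 without M15, and 10 to 12 without any other 1 mouse. It was 5 in each experiment alone and 5 without the low-count filter. The S-phase number was 5 without M14 and 6 without M16. Of 9 tested genes of the D cyclins and their inhibitors, 1 rose, the kinase gene *Cdk6* (0.29), and *Ccnd3* was at 0.07 (adjusted p = 0.42 from edgeR). Beside 12.7% of all genes called, 1 of 9 is no result about the list. *Cdk6* was not called without any 1 of M17, C1, C2 and C3.

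The Myc response list holds *Myc* and genes of ribosome, nucleotide and polyamine synthesis, glycolysis and nutrient uptake. Of its 14 genes, 11 rose and 0 fell (median 0.24), beside 6.16% of all genes higher. *Cad* (0.52), for pyrimidine synthesis, *Srm* (0.44), for spermidine synthesis, and *Mybbp1a* (0.38), a nucleolar protein gene, led the list, and *Ncl* (0.21) and *Npm1* (0.23) encode abundant nucleolar proteins. The other 6 were *Nme1* (0.37), *Ldha* (0.29), *Odc1* (0.28), *Fbl* (0.23), *Nolc1* (0.22) and *Nop56* (0.19). *Srm* ranged from 65.5 to 127 CPM in repeated and from 38.8 to 88.2 CPM in single pairs and was higher in 9 of 9 mice (adjusted p = 0.000977 from edgeR). *Myc* itself was at −0.22 (adjusted p = 0.423 from edgeR), with 13.4 to 50.9 CPM in repeated and 23.1 to 47.5 CPM in single pairs. It was lower in repeated pairs in 8 of 9 mice, with log2 differences per mouse from −1.01 to 1.11. Without C3, 9 genes of the list were called higher and 1 lower.

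Among 12 genes for the repair of deaminated bases and mismatches, 1 rose and 1 fell, beside 12.7% of all genes called, so that the count is no result about the list. *Apex1*, an endonuclease of base excision repair, was at 71.1 to 126 CPM in repeated and 64.7 to 108 CPM in single pairs, a log2 change of 0.26 (adjusted p = 0.0201 from edgeR). *Neil3*, a DNA glycosylase gene, was at 45.1 to 87.1 CPM and 75.0 to 98.6 CPM, a log2 change of −0.28 (adjusted p = 0.0204 from edgeR). *Apex1* was not called without C2 or without C3, nor *Neil3* without M14 or without M17. *Ung* (0.03), *Msh6* (0.00) and *Polh* (−0.04) did not pass. *Fas*, a death receptor gene and GC marker, was the 1 member of 9 tested survival and death genes that passed, at −0.25, a share again near that of all genes. *Ly75*, the gene of the antibody target, fell by 0.38 (standard error 0.0892, adjusted p = 0.00409 from edgeR), from 54.4 to 78.0 CPM in single pairs to 28.8 to 56.2 CPM in repeated pairs.

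**Figure D4:**
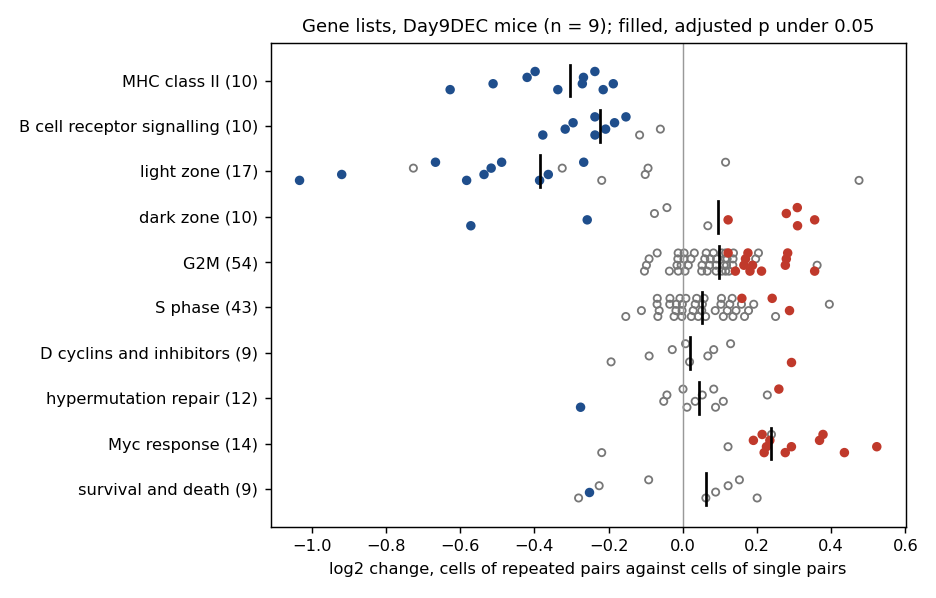
Log2 change between cells of repeated and of single pairs for each tested gene of 10 lists (number tested in parentheses), with filled points past an adjusted p of 0.05 and a bar at the median of each list. MHC class II genes all lie to the left, at −0.63 to −0.19, and 11 of 14 Myc response genes are filled at the right.

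Against cells of the founder pair, few genes passed. Of 8028 genes, 2 passed (0.0249%), both lower in repeated pairs: *S100a10* (−1.70, an annexin partner) and *Rdx* (−0.55). At an unadjusted p below 0.05 there were 396. Every list above had 0 genes past the threshold in this comparison, with medians between −0.11 (*Ly75* alone) and 0.03. Cells of the founder pair differed from the same cells of single pairs in 2404 of 9212 genes (26.1%), with all 10 MHC class II genes lower, 11 of 17 LZ genes lower and 13 of 14 Myc response genes higher. Since repeated and founder cells were both set against the same cells of single pairs, the values are given side by side only. *Apoe* was at 98.1 ± 38.6 CPM in the founder pair, 93.4 ± 29.9 in repeated pairs, 161 ± 75.5 in pairs of 2 and 233 ± 66.0 in single pairs (SD, n = 9, scaled together). *Ciita* was at 139 ± 10.6, 140 ± 20.5, 170 ± 26.2 and 203 ± 21.2 CPM in the same order, and *Cd83* at 93.8 ± 20.8, 83.1 ± 22.04, 86.7 ± 27.6 and 169 ± 34.7 CPM.

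Fewer genes passed without the common T291C pair, which also left fewer cells and mice. With T291C as the only repeated pair (220 cells, 8 mice), 763 genes passed. With it left out (147 cells, 6 mice), 104 passed, 32 higher and 72 lower, and both comparisons were chosen after seeing the data. Without T291C, *Cd83* (−1.01), *Apoe* (−0.86), *Fcer2a* (−1.497), *Rgs13* (−0.78), *Hivep3* (−0.91), *Slfn2* (−1.60), *Nfkbia* (−1.20) and *Il4i1* (−1.53) still passed. The MHC class II list kept 8 of 10 falls at a median of −0.36, the LZ list had 7 of 17 at −0.63, and the Myc response list had 1 rise of 14 at 0.14. The share of all genes called is not given for this or the later alternatives, so that their list counts cannot be set against it. B cell receptor signalling had 2 falls of 10 (median −0.24, against −0.22 with T291C), G2M 3 rises of 54 (0.21, against 0.10) and the DZ list 2 rises and 1 fall of 10 (0.18, against 0.10), and *Ly75* (−0.49, against −0.38) was not called, so that calls were lost in these lists while the medians were no smaller. None of the 10 largest rises passed without T291C, and *Sub1* (−0.88), *Slpi* (−0.66), *Capg* (−0.18), *Hsp90b1* (−0.40) and *Klf2* (−0.30) changed sign.

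**Figure D5:**
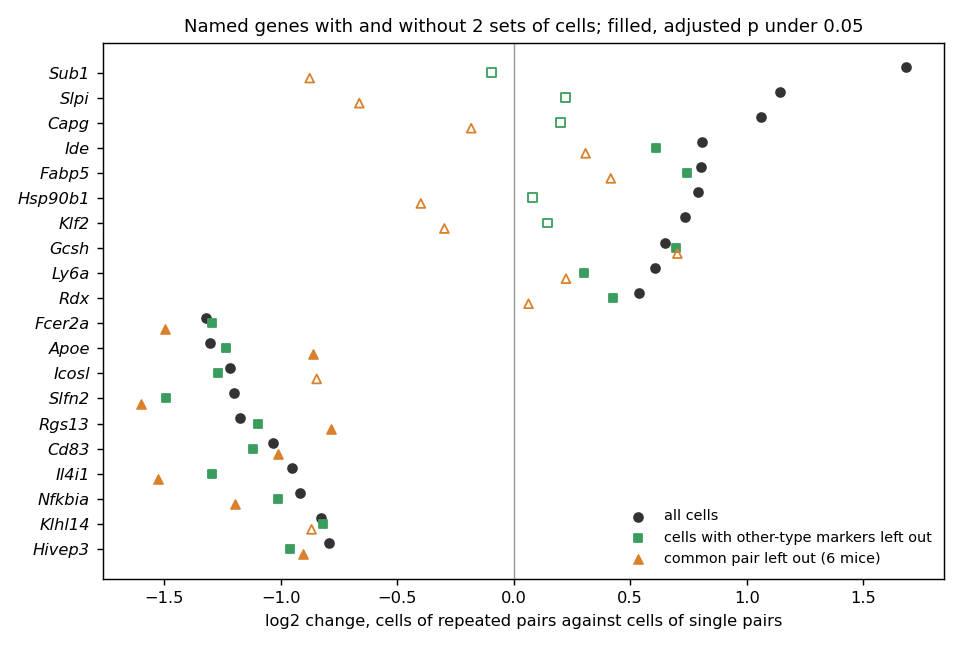
Log2 change of the 10 genes with the largest rises and the 10 with the largest falls, over all cells, without cells that held a UMI of the other cell types' markers, and without the T291C pair (6 mice); filled symbols are past an adjusted p of 0.05. The falls stay between −1.60 and −0.78 in all 3 comparisons, whereas Sub1 moves from 1.68 to −0.10 and −0.88.

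Private pairs were few. Only 2 mice (C1 and C2) had 10 or more such cells, 32 against 325 cells of single pairs, and 0 genes passed in edgeR (345 at an unadjusted p below 0.05). *Cd83* was at −1.84, *Fcer2a* at −2.45, *Apoe* at −0.89 and the MHC class II median at −0.46, in the direction of the comparison over all cells, while *Sub1* (−0.83) and *Slpi* (−0.89) were in the opposite one. When both classes were limited to pairs with 1 or 2 differences from the founder (363 against 934 cells, 9 mice), 286 genes passed, with *Apoe* at −0.99, *Cd83* at −0.87 and 8 of 10 MHC class II genes lower. The LZ list then had 5 falls of 16 (median −0.32), B cell receptor signalling 3 of 10 (−0.15), Myc response 4 rises of 14 (0.22), G2M 3 of 54 (0.04) and the DZ list 1 rise and 1 fall, and *Ly75* (−0.22) was not called. The differences from the founder counted light-chain changes such as T291C, so that the classes were not matched for heavy-chain changes. The part of mutation number in the expression differences was not tested.

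Cells of repeated pairs held more RNA molecules. The median number of UMIs per cell was 15053 to 23862 in repeated pairs and 12683 to 14871 in single pairs, with no overlap, and the means of 19015 ± 2635 and 13673 ± 711 (SD, n = 9) differed in 9 of 9 mice (two-sided exact sign-flip permutation test, adjusted p = 0.0156 over 8 measures, from the smallest p possible, 0.00391). Light-chain contigs had 299 ± 61.9 and 180 ± 34.9 UMIs (exact permutation test, adjusted p = 0.0156, higher in 9 of 9 mice), and heavy-chain contigs 57.7 ± 15.4 and 44.2 ± 12.2 UMIs (exact permutation test, adjusted p = 0.0208, higher in 8 of 9). Doublets of cells from the same mouse were not searched for, and their part in the depth was not tested. With every cell thinned to 2871 UMIs, 218 genes passed, 107 higher and 111 lower, and *Apoe* (−1.30), *Cd83* (−0.96) and 9 of 10 MHC class II genes were still called lower. The LZ list had 2 of 13 called (median −0.46, against −0.39 with all UMIs), Myc response 4 of 12 (0.35, against 0.24), B cell receptor signalling 5 of 10 (−0.31, against −0.22), G2M 7 of 52 (0.20, against 0.10) and S phase 0 of 39 (0.11, against 0.05), over the members that could still be tested. Repair genes had a median of 0.01 (8 tested) against 0.04 (12 tested), and survival and death genes 0.01 (6) against 0.06 (9). In thinned cells *Ly75* (−0.58), *Nfkbia* (−0.57) and *Rdx* (0.59) were not called.

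By the expression of phase genes, 9.26% ± 7.14 of the cells of repeated pairs and 17.9% ± 5.62 of those of single pairs were called G1 (SD, n = 9), a difference of −8.63 percentage points, lower in 7 of 9 mice (two-sided exact sign-flip permutation test, adjusted p = 0.0313). Per mouse the share was 0% to 21.4% and 9.90% to 27.9%, so that the ranges overlapped. With thinned cells the difference was −8.71 points. The call was lost without any 1 of 6 mice (M13, M15, M16, M17, C1 or C2), with differences between −8.98 and −7.40. It was also lost in pairs of 5 or more cells (−8.07), in JP0063 alone (−9.64) and among cells with 1 or 2 differences from the founder (−4.16). JP0063 alone has 6 treated mice, which limits how low a p this test can give. The shares called G2M, 50.8% ± 5.48 and 45.9% ± 5.101 (exact permutation test, adjusted p = 0.0893), and S, 39.9% ± 10.03 and 36.2% ± 4.14 (adjusted p = 0.379, the same exact test), did not pass. Neither did class switching, with 93.8% ± 5.46 and 88.6% ± 7.43 of heavy-chain contigs switched (exact permutation test, adjusted p = 0.0893), nor the percent of mitochondrial UMIs, at 2.72 ± 0.793 and 2.83 ± 0.805 (exact permutation test, adjusted p = 0.075). Against founder cells, none of the 8 measures passed (exact permutation tests, adjusted p of 0.991 or more). The median UMIs there were 18694 ± 1476.

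The same classes were formed in Day9 mice, with 5 of the 6 mice entering because M07 had 8 cells of repeated pairs. In these mice, 77 of 8017 genes passed (0.96%), 54 higher (0.674%) and 23 lower (0.287%), from 12 to 20 cells of repeated pairs per mouse. The median standard error was 0.237 (log2), and 0.268 in the test of the contrast between treatments below. It was 0.106 in Day9DEC mice, so that changes called there could be missed here. *Apoe* (−1.08), *Fcer2a* (−0.64) and *H2-Oa* (−0.61) fell, *Slpi* (3.81), *Sub1* (2.64), *Ide* (1.56) and *Rdx* (1.59) rose, and *Cd83* (−0.55, adjusted p = 0.0961 from edgeR), *Rgs13* (−0.59, adjusted p = 0.0901 from edgeR) and *Fabp5* (0.38, adjusted p = 0.646 from edgeR) did not pass. *H2-Oa* was the only MHC class II gene called in Day9 mice, 2 B cell receptor signalling genes were lower, and 0 LZ and 0 Myc response genes passed. *Slpi* and *Sub1* lost their calls in Day9DEC mice without the cells that held markers of other types. No such comparison is given for Day9 mice or for the contrast with treatment. Whether the contrast itself changed with treatment was tested as an interaction over 9092 genes in 14 mice, and 1 gene passed (0.011%), with 665 at an unadjusted p below 0.05 and 0 in DESeq2. This was *Tent5c*, an RNA poly(A) polymerase gene, with a log2 difference of −2.14 (standard error 0.387, adjusted p = 0.0201 from edgeR). Its level in Day9 mice was 59.9 ± 46.1 CPM in repeated pairs (SD, n = 5, 75 counts in all) and 9.81 ± 4.45 in single pairs, and in Day9DEC mice 16.4 ± 10.9 and 11.2 ± 2.75 CPM (SD, n = 9). None of the 8 cell measures differed with treatment (exact permutation tests within experiment, 840 relabellings, adjusted p = 0.813 for each). In Day9 mice the classes lay apart in the same direction for UMIs per cell (12170 and 8004) and for G1 calls (30.3% and 43.1%), where 5 mice cannot give an exact p below 0.0625.

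*Apoe*, *Cd83* and the MHC class II genes fell in each experiment. In JP0063 alone, 254 genes passed, with *Apoe* at −1.38, *Cd83* at −0.94 and 9 of 10 MHC class II genes lower. In JP0071 alone (3 mice), 556 passed, with −1.17, −1.16 and 8 of 10. The LZ list had 4 and 8 falls of 17 in the 2 experiments (medians −0.36 and −0.49), B cell receptor signalling 3 and 6 of 10 (−0.19 and −0.27), and Myc response 3 and 7 rises of 14 (0.17 and 0.40). *Ly75*, *Klhl14*, *Gcsh*, *Rdx* and *Klf2* were not called in JP0063 alone, nor *Ide* and *Il4i1* in JP0071 alone. The lowest and highest counts when 1 treated mouse was left out were 823 and 1107.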

How the data were processed

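Libraries for gene expression, hashtags and immunoglobulin contigs (10X Genomics 5′) of pools JP0063 and JP0071 were used. The authors deposited the UMI counts of each cell, for genes and hashtags, and of each contig, not normalised, made with Cell Ranger 8.0.1 per the file headers on mm39 (the labels name Cell Ranger 6.0.1 and Seurat 5.1.0), and lists of the hashtags of each mouse. Other pools were not analysed here, and 0 columns of samples were left unmapped.

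Cells were assigned to mice by hashtag (Seurat 5.3.0 HTODemux, positive quantile 0.99), which set aside cells with hashtags of several mice; no search was made for doublets within a mouse. Cells needed 1 productive contig per chain, at least 200 genes and under 10% mitochondrial UMIs. Counts were summed per mouse and class and tested with edgeR 4.0.16 (limma 3.58.1, R 4.3.3; quasi-likelihood test, filterByExpr, TMM, Benjamini-Hochberg over all genes tested, threshold 0.05), with at least 10 cells per mouse and class and a prior count of 2 for log values. The mouse was a block because both classes came from the same animal, which is where the pairing comes from. The median standard error was 0.106 (log2), and with few cells per mouse the depth limits changes that can be seen. Measures per cell were tested by exact sign-flip permutation (Python 3.11.15, scipy 1.17.1, numpy 2.4.6, pandas 2.3.3), and figures used matplotlib 3.10.9. p-values measure how the difference within a mouse varied from mouse to mouse, and counts carry counting error as well.

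Members, gene lists and tests were chosen with earlier results of these data known. Named genes were the 10 largest rises and 10 largest falls past the threshold with a mean log2 CPM above 4 and the same sign in most mice, immunoglobulin genes left out, and list members past the threshold with some others by role; a few list members are counted but not reported here by name. Alternatives were DESeq2 1.42.0, other filters, classes, hashtag rules and subsets of mice, and cells thinned to 2871 UMIs. On simulated counts for this comparison (8654 genes), 79% of genes changed 1.5-fold and 96.9% of those changed 2-fold were recovered. Sequences were located in the GRCm39 reference.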

Additional observations from a re-analysis of the deposited data

Results flagged for a closer look

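Samples far from the others of their group were looked for in 48 groups of values, and 5 were found, where chance gives about 1 in 20. In Day9 mice, M08 had 3 cells of private repeated pairs and the other 5 mice had 0. The same mouse had the highest mean number of base differences from the founder, 1.83 in repeated pairs (nearest other mouse 1.17) and 2.17 in pairs of 2 cells (nearest 1.33). In Day9DEC mice, C1 averaged 2.12 differences in repeated pairs (nearest 1.54), and its 16 cells of private pairs are described above. *Slfn2* had a log2 difference between repeated and single pairs of −2.79 in C1 (nearest −1.28), and the change over the other 8 mice was −0.98.

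*Tent5c* was the gene whose contrast between repeated and single pairs differed between Day9DEC and Day9 mice, by −2.14 on the log2 scale. In Day9 mice it rested on 75 counts, 29 of them in M09. Within Day9DEC mice its log2 change was 0.51 (adjusted p = 0.089 from edgeR).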

How the results depend on the processing

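Of the comparisons of named genes with alternatives, 436 kept direction and side of the threshold, 57 lost the call and 19 changed sign. Against 1106 genes, 286 passed with both classes at 1 or 2 base differences (130 higher, 156 lower), 254 in JP0063 alone, 556 in JP0071 alone, 218 with thinned cells, 104 without the T291C pair, 58 with 1 or more heavy-chain differences (4 mice) and 0 with private pairs alone (edgeR, 2 mice; 345 at an unadjusted p below 0.05). These alternatives have fewer cells, mice, genes or UMIs, and other causes were not tested. The count was 758 with DESeq2, 1057 with no replicate block for the mouse (1003 shared with the 1106; *Klf2* alone lost its call among the 20 genes), and 823 to 1107 without 1 mouse. Signs changed with private pairs for *Sub1* (−0.83), *Slpi* (−0.89), *Capg* (−0.17), *Hsp90b1* (−0.36), *Klf2* (−0.65) and *Rdx* (−0.041), and with 1 or more heavy-chain differences for *Sub1* (−0.68), *Slpi* (−0.75), *Capg* (−0.87), *Hsp90b1* (−0.27), *Klf2* (−0.062), *Ly6a* (−0.038) and *Rdx* (−0.015). They changed without T291C for *Sub1* (−0.88), *Slpi* (−0.66), *Capg* (−0.18), *Hsp90b1* (−0.40) and *Klf2* (−0.30), and without cells that held markers of other types for *Sub1* (−0.10). The genes whose contrast differed with treatment were 0 in DESeq2, 52 without the low-count filter, 4 with thinned cells and 0 to 6 without 1 mouse. With 1 or more heavy-chain differences, the MHC class II list had 4 falls of 10 (median −0.32) and the LZ list 1 of 16 (−0.51). B cell receptor signalling had 2 falls of 10 (−0.27) and Myc response 0 rises of 14 (0.27). List counts in the alternatives are set beside those of the main comparison, and the share of all genes called in each is not given.

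Among differences per cell (repeated minus single), G1 calls were no longer past the threshold with pairs of 5 or more cells (−8.07 points), at 1 or 2 differences (−4.16) or in JP0063 alone (−9.64), where UMIs per cell (5084), heavy-chain (14.3) and light-chain contig UMIs (111) were not either; 6 mice limit that test. Switched share with pairs of 2 or more cells (5.53 points) and mitochondrial percent with pairs of 5 or more (−0.132) passed. With private pairs, S was 17.8, G2M −4.54, switched share 14.7, mitochondrial percent −0.252 and heavy-chain UMIs 2. Without 1 mouse, the ranges were −10.4 to −7.16 for G1, 0.755 to 5.29 for S, 3.33 to 6.40 for G2M, 3.47 to 6.52 for switched share, −0.132 to −0.0847 for mitochondrial percent, 4818 to 5880 for UMIs, 12.1 to 15.3 for heavy-chain and 109 to 127 for light-chain UMIs. By V segments alone, the share of cells in repeated pairs in Day9DEC mice was 7.30% and the chance of a shared pair 0.131%, among cells without the founder pair. Counted only among cells whose pair no other mouse had, the share was 2.37% (0.176% in Day9 mice). The chance of a shared pair among those cells was 0.0588% (0.00441% in Day9 mice).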
